A study of Mus musculus with 6 samples.

Results

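The bone morphogenetic protein (BMP) genes described here are the ligands Bmp2, Bmp4 and Bmp7, the receptors Bmpr1a and Bmpr2, the inhibitory Smad gene Smad6 and the inhibitor of differentiation genes Id1, Id2, Id3 and Id4. They were taken by name, as 10 of the 55416 genes in a table of read counts, and all 10 passed the filter on low counts. By the GENCODE M21 annotation, Bmp2, Bmp7 and Id1 lie on chromosome 2, Bmp4 and Bmpr1a on chromosome 14, and Bmpr2, Id3, Smad6, Id2 and Id4 on chromosomes 1, 4, 9, 12 and 13 in that order. The libraries came from primary mouse keratinocytes, the epithelial cells of the epidermis, in 3 Cebpb knockout libraries (KO, labelled CEBPB KO and numbered 4, 5 and 6) and 3 wild type libraries (WT, numbered 1, 2 and 3). Cebpb encodes the transcription factor C/EBPβ, and its loss is the stated difference between the groups. Cells of both genotypes were isolated from C57BL/6J:129 hybrid mice 1 to 2 days after birth. They spent 24 h in medium with 10% serum and then grew in serum-free medium with epidermal growth factor and pituitary extract, at 0.05 mM calcium throughout. UVB was given to both genotypes 5 days after plating, at 10 mJ/cm2 with a lamp of 312 nm, and the cells were collected 8 h later. Every library is therefore from irradiated cells, and the values compare genotypes after UVB without measuring a response to it. The labels name neither the knockout allele nor the animals or cultures behind each library, so the spread between libraries may be technical.

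BMP ligands are secreted dimers that bring type I receptors, such as the product of Bmpr1a, together with type II receptors, such as that of Bmpr2. The active type I receptor phosphorylates Smad1, Smad5 and Smad9, which enter the nucleus with Smad4 and switch on target genes. Id genes are among the most direct of these targets. Id proteins have a helix-loop-helix but no DNA-binding region, so they capture E proteins and related factors and keep them off DNA, and Smad6 is a target that feeds back to block the pathway. In skin, BMP signals shape hair follicle growth and keratinocyte differentiation.

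Total counts were 81256192 to 92987497 in KO libraries and 107757415 to 122797031 in WT libraries. Cebpb, the check of the labels, had 78 to 109 counts in KO libraries and 12036 to 18184 counts in WT libraries. Defining keratinocyte genes were abundant, with all 8 markers on the list detected and a summed level of 24610 to 25666 CPM (counts scaled to a common library total) in KO libraries and 41418 to 46468 CPM in WT libraries. Of the 8 keratinocyte markers 6 were called lower in KO, among them the basal keratin gene Krt14 at 0.526 and the epithelial regulator Trp63 at 0.258 of the WT level, and the integrin gene Itgb4 was called higher at 1.43-fold. Melanocyte genes were present too. Their 6 markers summed to 605 to 687 CPM in KO libraries and 691 to 780 CPM in WT libraries, and 4 of them were called lower in KO. The 8 fibroblast markers summed to 5.36 to 5.65 CPM in KO libraries and 6.33 to 9.54 CPM in WT libraries, with Lum at 0. The 5 endothelial markers summed to 4.95 to 5.87 CPM in KO libraries and 6.97 to 7.48 CPM in WT libraries, with Cdh5 and Emcn at 0. Most of that sum was Kdr, at a mean of 4.77 CPM in KO and 6.36 CPM in WT. The 6 immune markers summed to 28.1 to 31.4 CPM in KO libraries and 48.3 to 57.9 CPM in WT libraries, most of it Cd68, with Cd3e at 0. Ptprc had 0 counts in every KO library and 1, 0 and 5 counts in WT libraries 1, 2 and 3. Cd207 had 1 count in KO 4 and 0 elsewhere. The 4 Y-linked genes summed to 0.101 to 0.158 CPM in KO libraries and 60.7 to 68.1 CPM in WT libraries, and Xist, expressed from the inactive X of female cells, had 567 to 604 CPM in KO libraries and 387 to 415 CPM in WT libraries. KO libraries thus held almost no Y-linked RNA, WT libraries held male cells, and both genotypes held female cells. Because the share of male cells differed with genotype in every library, the 2 cannot be told apart. The part of these differences in the results that follow was not tested. In bulk RNA, fewer cells of a type and less RNA per cell cannot be told apart.

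After UVB, the ligand genes were lower in KO keratinocytes and the Id genes were higher. Bmp2, Bmp4 and Bmp7 were each called lower, Id1, Id2, Id3 and Id4 were each called higher, and Smad6 and Bmpr1a were called higher, whereas Bmpr2 was not called. A call is a Benjamini-Hochberg adjusted p under 0.05 by edgeR's quasi-likelihood test over all 17659 genes tested. By that rule 6 members were higher and 3 were lower, while 24.8% of all genes tested were higher, 23.7% were lower and 48.6% were called in either direction. The groups did not overlap in 8 of the 10 members, against 56.4% of all genes. The median log2 fold change was 0.32 over the members and 0.01 over all genes tested. When libraries were scaled by their totals instead of by TMM, the median of all genes moved up by 0.20 log2 units. Calls over all genes then became 36.7% higher and 13.9% lower, and 6 members were higher and 2 lower.

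**Figure D1:**
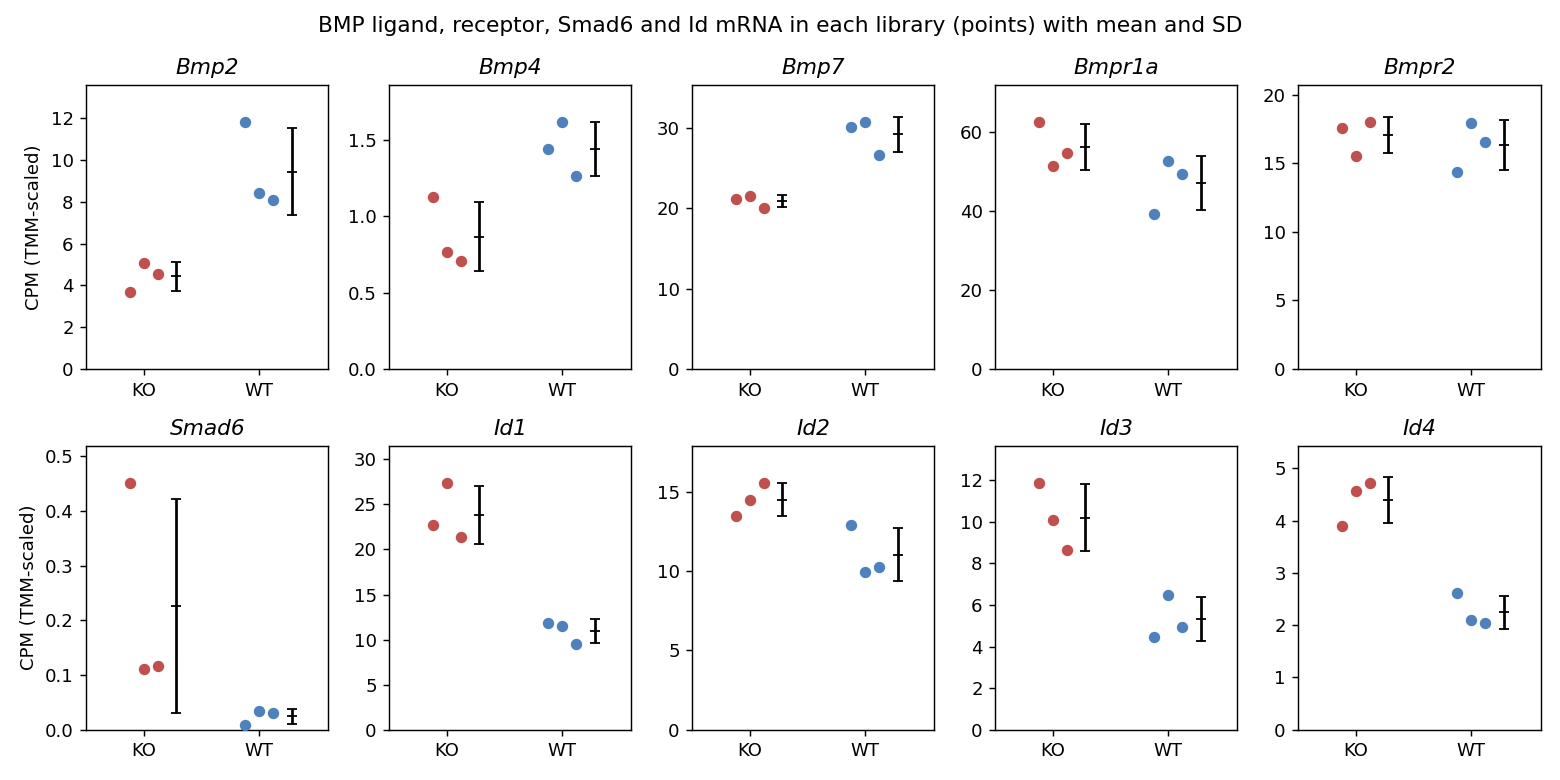
Level of each gene in every library, in TMM-scaled CPM on linear axes that start at 0 and differ between panels. Points are libraries (KO red, left; WT blue, right), and the black mark beside each group is its mean with the SD (n = 3). KO and WT points do not overlap for the 3 ligand genes, Smad6 and the 4 Id genes, and they overlap for Bmpr1a and Bmpr2.

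Of the ligand genes, Bmp2 had the largest estimated fall. Bmp2 (ENSMUSG00000027358) encodes a ligand of the BMP2/4 class and had 3.68, 5.07 and 4.54 CPM in KO libraries 4, 5 and 6, against 11.8, 8.42 and 8.08 CPM in WT libraries 1, 2 and 3. The highest KO library stayed below the lowest WT library, and WT 1 stood above the other WT libraries. Bmp2 averaged 4.43 ± 0.705 CPM in KO and 9.44 ± 2.06 CPM in WT (SD, n = 3 each). Its log2 fold change was -1.09 ± 0.16 (SE; edgeR adjusted p = 3.38e-05), which is 0.469 of the WT level.

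Bmp7 (ENSMUSG00000008999), whose product forms dimers with itself or with BMP2 and BMP4, was the most abundant of the 3 ligand mRNAs per length. It had 21.1, 21.6 and 20.04 CPM in KO libraries 4, 5 and 6, against 30.1, 30.7 and 26.7 CPM in WT libraries 1, 2 and 3. The KO libraries lay close together and all below the WT libraries. The log2 fold change was -0.48 ± 0.08 (SE; edgeR adjusted p = 1.78e-04).

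Bmp4 (ENSMUSG00000021835), the close relative of Bmp2, was scarce. It had 107, 76 and 61 counts in KO libraries 4, 5 and 6, against 161, 188 and 126 counts in WT libraries 1, 2 and 3, or 0.867 ± 0.225 CPM in KO and 1.44 ± 0.177 CPM in WT (SD, n = 3 each). KO 4, at 1.12 CPM, lay just below the lowest WT library, at 1.26 CPM. The log2 fold change was -0.73 ± 0.24 (SE; edgeR adjusted p = 0.0187). Scaling by library totals ended the call of Bmp4 (-0.53, edgeR adjusted p = 0.0819), as did leaving out WT replicate 2 (-0.64, 0.0697), KO replicate 5 (-0.65, 0.0720) or KO replicate 6 (-0.61, 0.0766), in a range of adjusted p from 0.00615 to 0.0819. An antisense gene, Gm15222, lies over Bmp4 in the GENCODE M21 annotation and had 1, 10 and 5 counts in KO libraries and 0, 3 and 10 counts in WT libraries.

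Per kilobase of exon, Bmp7 made up 77.4%, 75.2% and 75.8% of the summed level of these 3 ligand mRNAs in KO libraries 4, 5 and 6, against 65.4%, 71.2% and 70.1% in WT libraries 1, 2 and 3. Bmp2 made up 15.2%, 20.02% and 19.4% in KO libraries, against 29.0%, 22.1% and 24.0% in WT libraries. Neither share overlapped between genotypes, so the smaller summed level of these 3 mRNAs in KO libraries held proportionally more Bmp7 and less Bmp2. Other ligand genes were not part of this sum. Bmp4 took 5.65% ± 1.49 in KO and 6.08% ± 0.565 in WT (SD, n = 3 each), with overlapping libraries. The summed CPM of the 3 genes was 26.2 ± 1.08 in KO and 40.0 ± 3.74 in WT. These shares are descriptions with no test.

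Among 12 other ligand genes, 3 were called lower and 1 was tested without a call, at a median of -0.87 on the log2 scale for these 4, and 6 had no count in any library. Over all genes tested 23.7% were called lower. Bmp6 (ENSMUSG00000039004), a ligand of the same class as Bmp7, had 0.639 ± 0.0168 CPM in KO and 2.495 ± 0.309 CPM in WT (SD, n = 3 each). Its log2 fold change was -1.96 ± 0.20 (SE; edgeR adjusted p = 7.09e-07), a deeper fall than that estimated for Bmp2, though the difference between the genes was not tested. Bmp8a fell, with a log2 fold change of -0.99 ± 0.23 (SE; edgeR adjusted p = 0.00176), and Bmp8b was not called, at 1.16 ± 0.0744 CPM in KO and 1.16 ± 0.21 CPM in WT. Bmp8a and Bmp8b are related genes, and whether reads were shared between them was not tested. Bmp3, a ligand known to oppose BMP signals in bone, had a log2 fold change of -0.75 ± 0.26 (edgeR adjusted p = 0.0280). That call of Bmp3 was lost without WT replicate 1 (-0.52, edgeR adjusted p = 0.149) or 3 (-0.79, 0.0576), without KO replicate 4 (-0.59, 0.106) or 6 (-0.77, 0.0566) and with library totals (-0.55, 0.0935).

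Of the protease genes, Bmp1 rose. Bmp1, which despite its name encodes a metalloprotease that cleaves procollagen and the BMP antagonist chordin, had 131, 134 and 137 CPM in KO libraries 4, 5 and 6, against 51.2, 48.9 and 49.1 CPM in WT libraries 1, 2 and 3. All KO libraries lay far above all WT libraries, and the log2 fold change was 1.43 ± 0.06 (SE; edgeR adjusted p = 1.49e-11). Furin, which cleaves BMP precursors, stood at 303 ± 10.1 CPM in KO and 296 ± 16.7 CPM in WT (SD, n = 3 each) and was not called (0.03 ± 0.06, edgeR adjusted p = 0.68), but was called higher with library totals (0.23, edgeR adjusted p = 0.00286). Of the 4 protease genes tested, Bmp1 alone was called, and 2 were called higher with library totals and without KO replicate 4. The share called in either direction over all genes tested was 48.6%.

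Of the 2 receptor members, Bmpr1a was narrowly called and Bmpr2 was not. Bmpr1a (ENSMUSG00000021796), the type I receptor gene, had 62.7, 51.4 and 54.8 CPM in KO libraries 4, 5 and 6, against 39.4, 52.7 and 49.5 CPM in WT libraries 1, 2 and 3. The groups overlapped, since WT 2 lay above KO 5, and WT 1 stood apart at the low end. The log2 fold change was 0.25 ± 0.10 (SE; edgeR adjusted p = 0.0461), barely past the threshold. The call was lost with DESeq2 size factors (0.24, edgeR adjusted p = 0.0538), without WT replicate 1 (0.14, 0.191) or 3 (0.28, 0.0801) and without KO replicate 4 (0.17, 0.207) or 6 (0.27, 0.0747), in a range from 0.00203 to 0.207. Gm17110, an antisense gene that overlaps Bmpr1a, had 26 to 44 counts in KO libraries and 25 to 49 counts in WT libraries.

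Bmpr2 (ENSMUSG00000067336), the type II receptor gene, had 17.6, 15.5 and 18.0 CPM in KO libraries 4, 5 and 6, against 14.4, 18.0 and 16.6 CPM in WT libraries 1, 2 and 3. The groups overlapped over most of their range. Its log2 fold change of 0.06 was not called (edgeR adjusted p = 0.648), and the 95% interval ran from -0.16 to 0.28.

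Among other receptors and co-receptors, 5 of 9 tested were higher, 1 was lower and 3 had no call, and their median was 0.29 on the log2 scale. Without WT replicate 3 the number called higher was 3. Of all genes tested, 24.8% were higher and 23.7% were lower. Acvr1, which encodes the type I receptor ALK2, had 26.9 ± 2.19 CPM in KO and 15.3 ± 1.26 CPM in WT (SD, n = 3 each), a log2 fold change of 0.81 ± 0.10 (SE; edgeR adjusted p = 2.84e-06). Acvrl1, which encodes ALK1, a type I receptor best known in endothelium, had 22.9 ± 0.614 CPM in KO and 12.9 ± 1 CPM in WT, a rise of 0.83 ± 0.09 (edgeR adjusted p = 1.54e-06). The type II receptor gene Acvr2b rose by 0.93 (edgeR adjusted p = 0.00281), and Acvr2a was not called at 6.03 ± 0.655 CPM in KO and 6.66 ± 1.03 CPM in WT. The co-receptor gene Rgma rose by 0.39 (edgeR adjusted p = 0.00861), a call that was lost without WT replicate 3 (0.28, edgeR adjusted p = 0.0644). Tgfbr3, named after its values were seen as the one gene of this list called lower, had 9 to 18 counts in KO libraries and 37 to 74 counts in WT libraries.

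Of the Smad genes that carry the BMP signal, 2 of 3 tested were called higher, beside 24.8% of all genes tested. Smad5 had 109 ± 4.13 CPM in KO and 72.6 ± 4.38 CPM in WT (SD, n = 3 each), a log2 fold change of 0.59 ± 0.06 (SE; edgeR adjusted p = 1.16e-06). Smad1 had 58.3 ± 2.97 CPM in KO and 46.0 ± 1.23 CPM in WT and rose by 0.34 (edgeR adjusted p = 5.06e-04). Smad4, the common partner, was not called at 64.8 ± 3.97 CPM in KO and 60.3 ± 6.62 CPM in WT (0.10 ± 0.08, edgeR adjusted p = 0.303), but was called higher with library totals (0.30, 0.00847) and without WT replicate 2 (0.19, 0.0468). Smad9 was too scarce to be tested, with 0 to 4 counts in KO and in WT libraries.

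Smad6 (ENSMUSG00000036867), whose protein blocks BMP receptors and Smad1 from inside the cell, was almost undetected in WT cells. It had 43, 11 and 10 counts in KO libraries 4, 5 and 6, against 1, 4 and 3 counts in WT libraries 1, 2 and 3. Every KO library lay above every WT library, and KO 4 stood far above the other KO libraries. In CPM this was 0.452, 0.111 and 0.116 in KO libraries and 0.009, 0.0344 and 0.0301 in WT libraries, where 3 counts are worth 0.0258 to 0.0349 CPM. The ratio of the summed and scaled counts, 64 in KO and 8 in WT, was 9.35, with an exact 95% interval of 4.47 to 22.6 that covers counting error only. edgeR gave a log2 fold change of 3.15 ± 0.81 (SE, adjusted p = 0.00399), which without KO replicate 4 became 2.16 and was no longer called (edgeR adjusted p = 0.0874, in a range from 0.00118 to 0.0874). The rise therefore rests on few reads and, for its call, on 1 library.

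The 250 bases before the start of Smad6 are shown because they hold a copy of the C/EBP half-site pair TTGCNNAA, in capitals (RefSeq sequence, GRCm38.p6, chr9:64022060-64022309, minus strand, 5′ to 3′).
Smad6: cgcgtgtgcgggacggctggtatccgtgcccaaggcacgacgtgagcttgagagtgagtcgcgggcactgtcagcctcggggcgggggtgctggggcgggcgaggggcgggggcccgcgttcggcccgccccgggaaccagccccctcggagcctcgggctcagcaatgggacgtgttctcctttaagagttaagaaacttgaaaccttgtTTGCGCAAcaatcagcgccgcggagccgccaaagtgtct
The match, whose first base lies 39 bases before the annotated start, reads as the palindrome ttgcgcaa. TTGCNNAA was searched on both strands and occurs in 9.56% of all 32851 promoter windows of this length. Among the 7 members with a promoter in that table, Smad6 alone held it. A match is a run of letters and not evidence of binding.

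All 4 Id genes rose in KO cells. Id1 (ENSMUSG00000042745), the classical BMP target of the family, had 22.7, 27.4 and 21.4 CPM in KO libraries 4, 5 and 6, against 11.9, 11.5 and 9.47 CPM in WT libraries 1, 2 and 3. The lowest KO library held well over the level of the highest WT library. Id1 averaged 23.8 ± 3.17 CPM in KO and 10.96 ± 1.3 CPM in WT (SD, n = 3 each), a log2 fold change of 1.12 ± 0.12 (SE; edgeR adjusted p = 6.48e-07) or 2.17-fold.

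Id3 (ENSMUSG00000007872), which is often induced together with Id1, had 11.9, 10.1 and 8.63 CPM in KO libraries 4, 5 and 6, against 4.46, 6.50 and 4.96 CPM in WT libraries 1, 2 and 3. The groups did not overlap, and the lowest KO library was KO 6. The log2 fold change was 0.94 ± 0.15 (SE; edgeR adjusted p = 8.67e-05).

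Id4 (ENSMUSG00000021379), the least abundant Id mRNA per length, had 3.89, 4.57 and 4.72 CPM in KO libraries 4, 5 and 6, against 2.61, 2.10 and 2.04 CPM in WT libraries 1, 2 and 3. All KO libraries were above all WT libraries, with a log2 fold change of 0.97 ± 0.16 (SE; edgeR adjusted p = 1.00e-04). The genes that overlap it on the other strand, A330033J07Rik and Gm49291, came to 1 count in all libraries together.

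Id2 (ENSMUSG00000020644), an Id gene with many inputs besides BMP, had the smallest estimated rise. It had 13.5, 14.4 and 15.6 CPM in KO libraries 4, 5 and 6, against 12.9, 9.94 and 10.2 CPM in WT libraries 1, 2 and 3. WT 1 lay just below KO 4, and the groups did not overlap. The log2 fold change was 0.39 ± 0.12 (SE; edgeR adjusted p = 0.0104). The call was lost without WT replicate 2 (0.32, edgeR adjusted p = 0.0505) or 3 (0.335, 0.0676) and without KO replicate 6 (0.34, 0.0513), in a range from 4.82e-04 to 0.0676, while the direction held in all 12 alternatives.

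**Figure D2:**
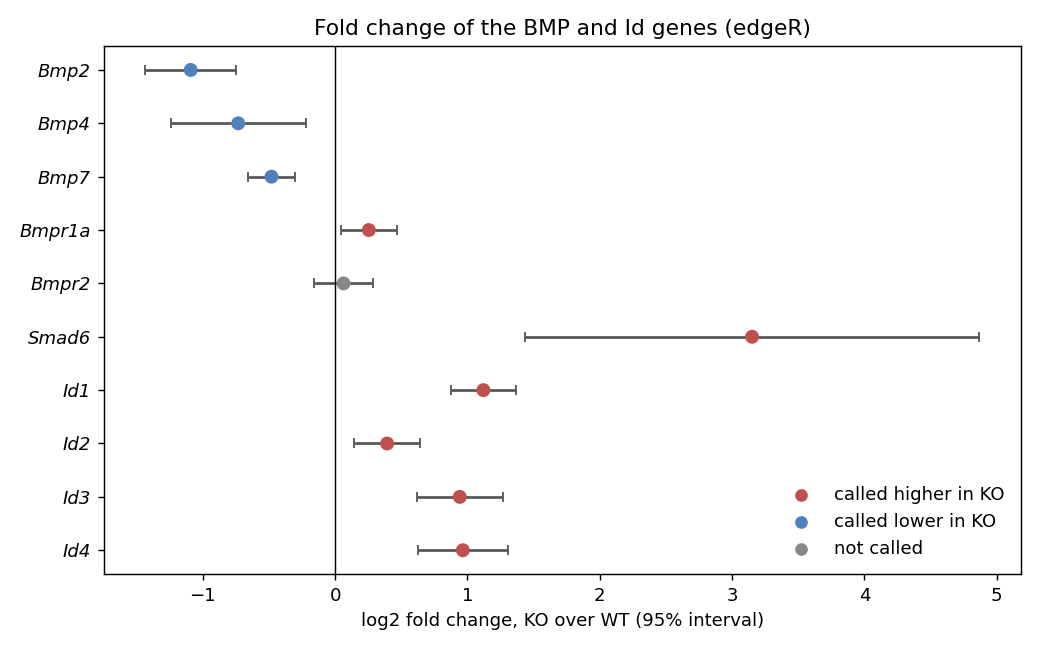
Log2 fold change (KO over WT) of each gene with its 95% interval from edgeR, red where called higher, blue where called lower and grey where not called. The 3 ligand genes lie left of 0, the 4 Id genes lie between 0.39 and 1.12, and the interval of Smad6 is the widest, from 1.44 to 4.87.

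Promoter sequence of Id2, Id3 and Id4 is shown because the Id genes rose together, with the searched letters in capitals (RefSeq sequence, GRCm38.p6, 5′ to 3′). GGCGCC is the core to which Smad1 and Smad5 are known to bind, and CAGAC holds the shorter letters that Smad4 recognises. For Id4 the whole 250 bases before the start are given (chr13:48260866-48261115, plus strand), for Id2 the 89 bases outside annotated exons (chr12:25096254-25096342, minus strand), and for Id3 30 bases around each match (chr4:136143642-136143671 and chr4:136143741-136143770, plus strand).
Id4: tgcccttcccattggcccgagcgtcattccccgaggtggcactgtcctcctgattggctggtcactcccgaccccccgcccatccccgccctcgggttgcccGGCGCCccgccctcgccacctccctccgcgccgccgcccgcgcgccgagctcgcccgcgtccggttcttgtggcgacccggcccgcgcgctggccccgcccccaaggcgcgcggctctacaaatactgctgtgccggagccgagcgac
Id2: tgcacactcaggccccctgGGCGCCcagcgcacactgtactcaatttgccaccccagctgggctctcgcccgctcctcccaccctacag
Id3, far match: ctgtcctcggcgtCAGACcagcctaaggaa
Id3, near match: tggacccttggcgGTCTGttttgaataagg
Id2 and Id4 each held 1 GGCGCC, with its first base 231 bases before the start in Id2 and 148 bases before the start in Id4. The bases just after the Id4 start were not found in a GENCODE M21 transcript of Id4. That start, and the distance counted from it, are therefore uncertain. Id3 held none of that motif and 2 copies of CAGAC, 1 on each strand. GGCGCC, which reads alike on both strands, occurs in 9.59% of all promoter windows of this length and CAGAC in 42.2%. GGCGCC was also found once in the windows of Bmpr1a and Bmpr2, the members with the smallest fold changes, and none of the 3 motifs was found in that of Bmp4. The windows with GGCGCC were rich in G and C, at 62.8% in Id2, 64% in Bmpr2, 75.6% in Id4 and 78.8% in Bmpr1a. Those without it held 62.8% in Id3, 63.2% in Bmp4 and 66.8% in Smad6. The motif's share among windows of like G and C content was not counted. As for Smad6, these matches are not evidence of binding. The Id3 window is covered by exons of the GENCODE M21 annotation, which is why only short pieces of it are given. All 250 bases of the Bmpr2 window lie in such exons too, as do 141 bases of the Bmpr1a window and 161 of the Id2 window. The promoters of Id1, Bmp2 and Bmp7 were not analysed here.

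Per kilobase of exon, Id1 was the most abundant of all members in both genotypes, at 20.5 ± 2.73 CPM per kb in KO and 9.45 ± 1.12 CPM per kb in WT (SD, n = 3 each). In KO it was followed by Bmpr1a at 8.86 ± 0.908, Id2 at 5.94 ± 0.43, Id3 at 5.70 ± 0.909 and Bmp7 at 5.20 ± 0.193 CPM per kb. Of these neighbours in KO, Id2 overlapped with Id3 and Id3 with Bmp7. In WT the order after Id1 was Bmpr1a at 7.43 ± 1.09, Bmp7 at 7.26 ± 0.545, Id2 at 4.53 ± 0.676 and Id3 at 2.97 ± 0.593 CPM per kb, and Id1 overlapped with Bmpr1a and Bmpr1a with Bmp7. Lower in the order, Bmp2 averaged 1.25 CPM per kb in KO and 2.66 in WT, Id4 1.14 in KO and 0.584 in WT, Bmpr2 0.947 in KO and 0.906 in WT, and Bmp4 0.386 in KO and 0.641 in WT. Id4 thus overlapped with Bmp2 in KO and with Bmp4 in WT, and Smad6 was last in both genotypes. Bmp7 stood above Id2 and Id3 in every WT library.

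The make-up of the Id pool differed as well. Id1 took 59.8%, 64.9% and 59.7% of the summed per-length Id level in KO libraries 4, 5 and 6, against 54.7%, 54.7% and 52.1% in WT libraries 1, 2 and 3. Id2 took 16.9%, 16.3% and 20.7% in KO libraries, against 28.3%, 22.4% and 26.8% in WT libraries. Both shares were separate between genotypes, Id1 with the larger and Id2 with the smaller share in KO. The shares of Id3 (17.1% ± 2.71 in KO and 17.0% ± 3.37 in WT) and of Id4 (3.44% ± 0.473 in KO and 3.33% ± 0.316 in WT) overlapped (SD, n = 3 each). The summed CPM of the 4 Id genes was 52.0, 56.5 and 50.3 in KO libraries and 31.9, 30.1 and 26.7 in WT libraries.

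Within a genotype the members did not vary as a block. KO 4 was the highest KO library for Smad6, Bmp4, Id3 and Bmpr1a and the lowest for Bmp2, Id2 and Id4. WT 1 was the opposite, being the highest WT library for Bmp2, Id1, Id2 and Id4 and the lowest for Smad6, Id3, Bmpr1a and Bmpr2. On the log2 scale Bmp2 deviated from the mean of its genotype by -0.26 in KO 4 and by 0.35 in WT 1, and Id3 by 0.23 in KO 4 and by -0.23 in WT 1. Id1 followed neither pattern in KO, where KO 5 was highest. With 3 libraries a genotype these deviations are descriptions, and RNA quality and culture conditions were not measured in these files.

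**Figure D3:**
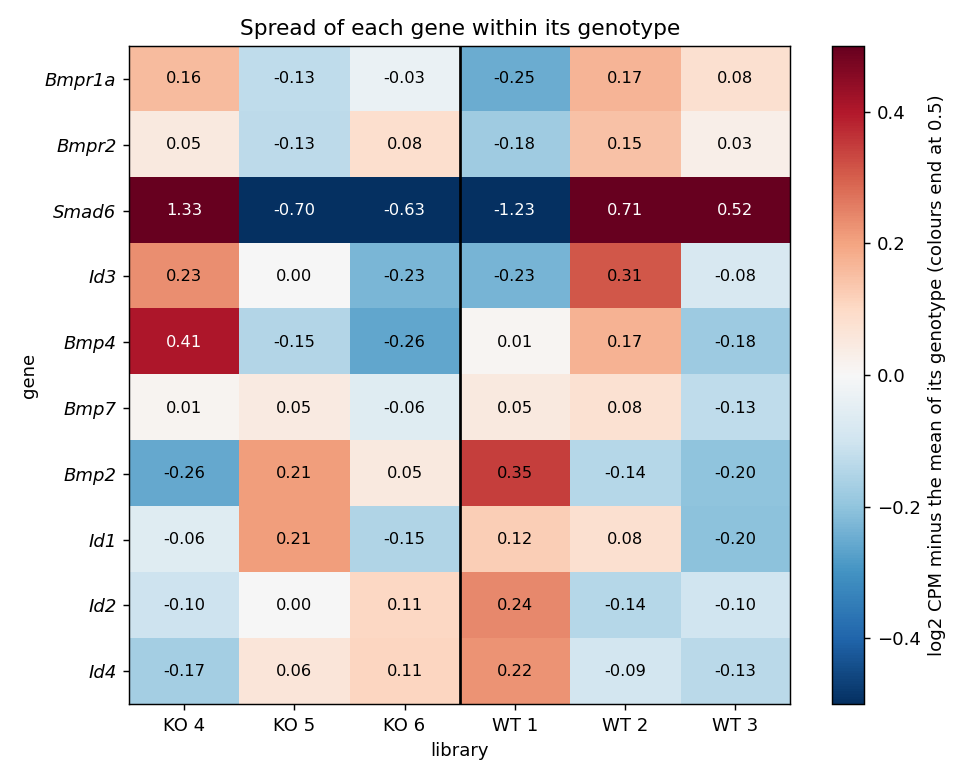
Deviation of each gene in each library from the mean of its own genotype, in log2 CPM, with KO libraries left of the black line and WT libraries right of it. Colours end at 0.5, which only Smad6 passes. Bmpr1a and Id3 are high in KO 4 and low in WT 1, while Bmp2, Id2 and Id4 show the reverse.

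Of the intracellular brakes on Smad signalling, 4 of 9 were higher, 2 were lower and 3 had no call. Their median was -0.03 on the log2 scale and 0.17 with library totals. Over all genes tested 24.8% were higher and 23.7% were lower. Skil, which encodes the Smad corepressor SnoN, had 217 ± 7.81 CPM in KO and 149 ± 8.47 CPM in WT (SD, n = 3 each), a rise of 0.55 ± 0.06 (SE; edgeR adjusted p = 1.30e-06). Smurf2, a ubiquitin ligase for Smads and receptors, rose by 0.76 (edgeR adjusted p = 4.26e-05), and Fkbp1a, which holds type I receptors inactive, by 0.35 (edgeR adjusted p = 3.37e-04). Tob1, an antiproliferative protein that dampens Smad activity in bone, fell to 179 ± 15.2 CPM in KO, against 249 ± 37.9 CPM in WT, a log2 fold change of -0.47 (edgeR adjusted p = 8.62e-04). Smurf1 was not called, at 193 ± 5.55 CPM in KO and 197 ± 5.38 CPM in WT. Smad7 and Nedd4l were named after their values were seen. The inhibitory Smad gene Smad7 had 60.3 ± 5.47 CPM in KO and 42.4 ± 7.39 CPM in WT. It was called higher (0.51, edgeR adjusted p = 9.16e-04), and Nedd4l was called lower (-0.44, edgeR adjusted p = 0.0305). The number called lower was 1 with library totals and without WT replicate 1, KO replicate 4 or KO replicate 5.

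Secreted and membrane antagonists were split, with 4 of 12 tested higher, 2 lower and 6 without a call, and a median of -0.15 that was 0.04 with library totals. The shares over all genes tested were 24.8% higher and 23.7% lower. Fst, which encodes follistatin, a trap for activins and some BMPs, was not called, at 424 ± 18.3 CPM in KO and 419 ± 34.9 CPM in WT (SD, n = 3 each), but was called higher with library totals (0.22, edgeR adjusted p = 0.00503). Twsg1, a modulator that binds BMPs and chordin, had 124 ± 5.86 CPM in KO and 98.3 ± 4.57 CPM in WT and rose by 0.33 (edgeR adjusted p = 3.19e-04). Nbl1, a relative of gremlin, rose by 0.40 (edgeR adjusted p = 6.97e-05), and the follistatin-like gene Fstl1 by 1.31 ± 0.18 (SE; edgeR adjusted p = 1.63e-05). Sostdc1, an antagonist of BMP and Wnt signals in skin appendages, rose by 0.67 (edgeR adjusted p = 0.0189). Its call was lost without WT replicate 1 (0.58, edgeR adjusted p = 0.0585) or 2 (0.54, 0.0768) and without KO replicate 5 (0.60, 0.0755). The number called lower was 1 with library totals, with a minimum mean of 1 CPM, and without WT replicate 2 or KO replicate 5.

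Transcription factor genes that respond to BMP in other settings went both ways. Of 9 tested, 3 were higher, 4 were lower and 2 had no call, and the median was 0.05 on the log2 scale. Among all genes tested 24.8% were higher and 23.7% were lower. Msx2, a homeobox gene and a known BMP target, had 47.5 ± 1.47 CPM in KO and 34.6 ± 4.38 CPM in WT (SD, n = 3 each), a rise of 0.46 ± 0.09 (SE; edgeR adjusted p = 3.42e-04). Dlx3, a homeobox gene of the differentiating epidermis and hair, fell to 6.82 ± 0.455 CPM in KO, against 21.4 ± 3.06 CPM in WT, with a log2 fold change of -1.65 ± 0.12 (edgeR adjusted p = 7.63e-09). Foxn1, the gene mutated in nude mice, fell by 0.46 (edgeR adjusted p = 0.00156), and Gata3 was not called at 35.7 ± 2.09 CPM in KO and 34.4 ± 3.26 CPM in WT, but was called higher with library totals (0.25, edgeR adjusted p = 0.0256). Dlx2 was called lower (-0.35, edgeR adjusted p = 0.0301). Library totals ended the call of Dlx2 (-0.15, edgeR adjusted p = 0.341), as did leaving out WT replicate 1 (-0.29, 0.0992) or 2 (-0.35, 0.0650) or KO replicate 4 (-0.33, 0.0849), 5 (-0.37, 0.0575) or 6 (-0.35, 0.0636). Msx1 and Gata2, the other 2 genes called higher and named after their values were seen, lay below 1 CPM in every library. Dlx5, also named after its values were seen, averaged 0.218 ± 0.0809 CPM in KO and 0.898 ± 0.235 CPM in WT and was called lower (-2.05, edgeR adjusted p = 1.95e-04). The number called higher was 1 with a minimum mean of 1 CPM and without WT replicate 1, KO replicate 5 or KO replicate 6.

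Of the 3 E protein genes, whose products Id proteins capture, 1 was called. Tcf3, which encodes E12 and E47, had 147 ± 13.1 CPM in KO and 120 ± 14.3 CPM in WT (SD, n = 3 each). It rose by 0.29 ± 0.08 (SE; edgeR adjusted p = 0.00891), a call lost without WT replicate 3 (0.25, edgeR adjusted p = 0.0624). The groups overlapped, since KO 6 at 132 CPM lay below WT 2 at 136 CPM. Tcf12 was not called, at 14.7 ± 1.84 CPM in KO and 15.6 ± 1.44 CPM in WT. Over all 53 tested genes of these pathway lists, 20 were called higher, 12 lower and 21 had no call, with a median of 0.02 on the log2 scale, beside 24.8% higher and 23.7% lower over all genes tested. With library totals 26 were called higher and 8 lower, with a median of 0.22, beside 36.7% higher and 13.9% lower over all genes.

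**Figure D4:**
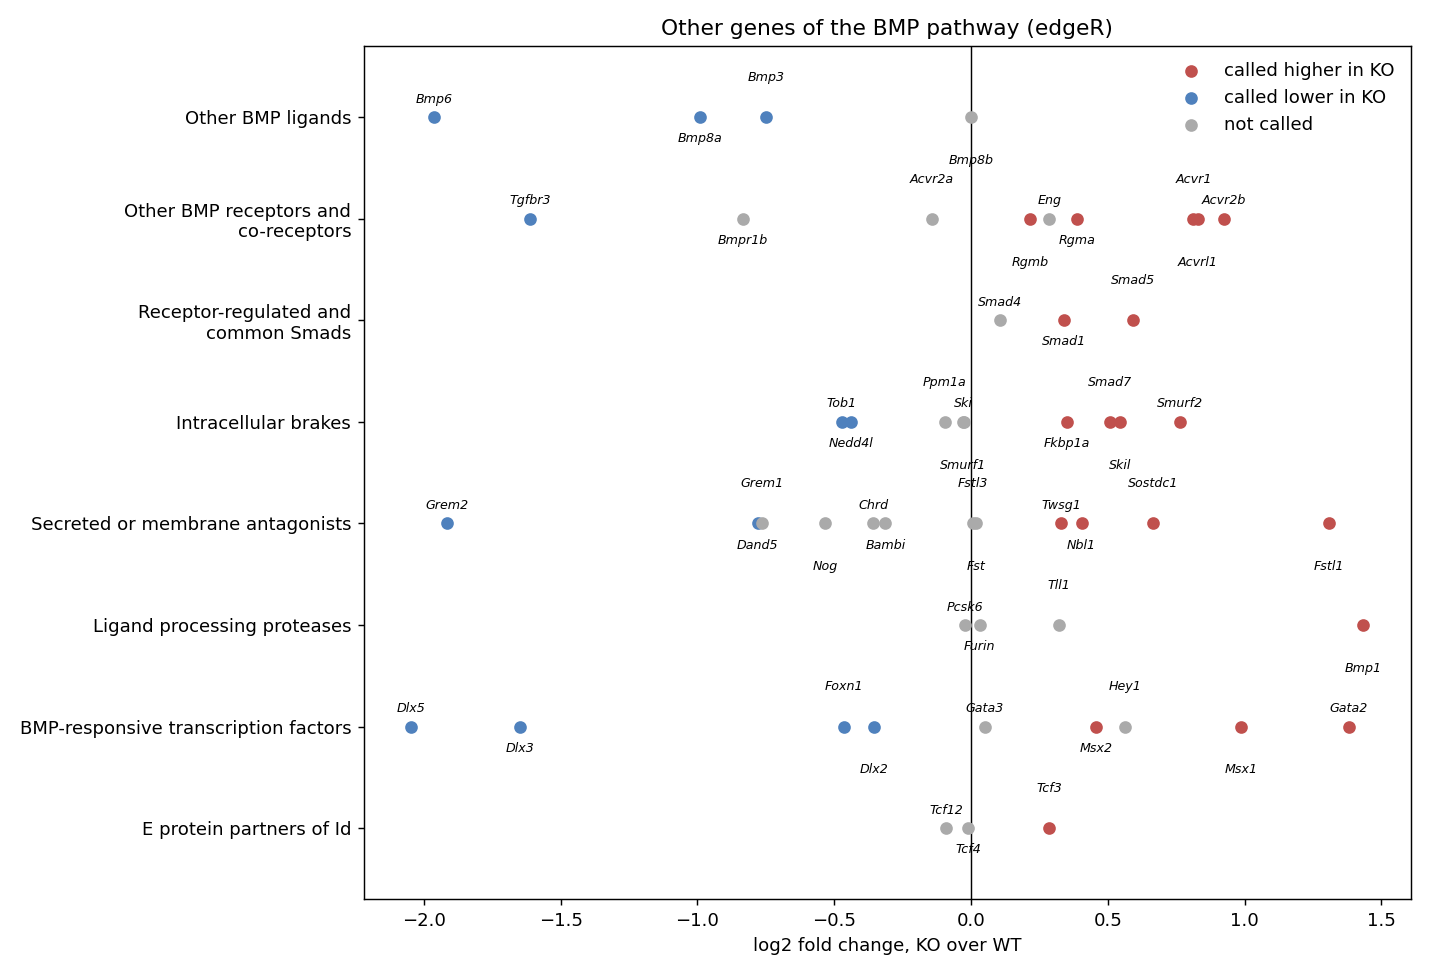
Log2 fold change (KO over WT) of every tested gene of the other BMP pathway lists, 1 row per list, red where called higher, blue where called lower and grey where not called by edgeR. Tested ligand genes lie at or left of 0, Smad genes lie right of it, and the antagonists and responsive factors spread to both sides.

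The ligand and Id results held their direction under every alternative run, for 7 genes and 12 alternatives. Bmp2 lay between -1.20 and -0.89, Bmp7 between -0.55 and -0.28, Id1 between 1.01 and 1.32, Id3 between 0.82 and 1.14 and Id4 between 0.89 and 1.16 on the log2 scale, and these 5 genes stayed past the threshold in all of them. Bmp4, Id2, Smad6 and Bmpr1a each lost their call under at least 1 alternative, as given above.

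**Figure D5:**
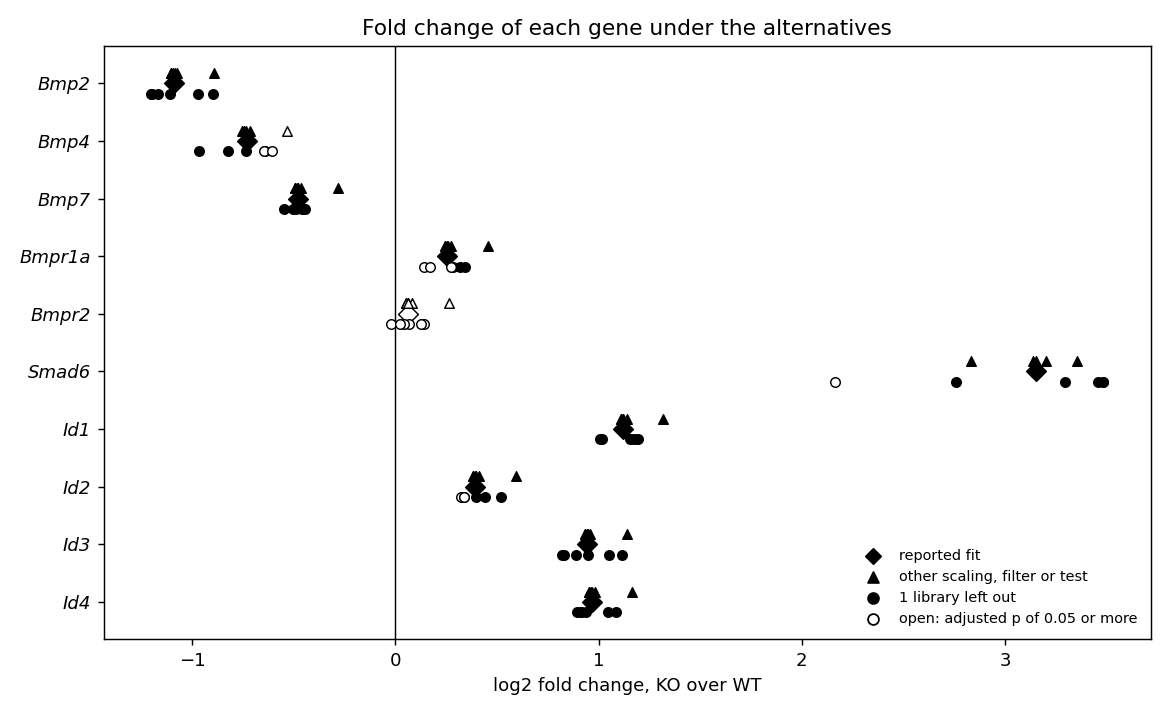
Log2 fold change (KO over WT) of each gene in the reported fit (diamond), under another scaling, filter or test (triangles) and with 1 library left out (circles), filled where the adjusted p is under 0.05 and open where it is not. Bmp2, Bmp7, Id1, Id3 and Id4 are filled throughout, and the leftmost point of Smad6, at 2.16, is the fit without KO replicate 4.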

How the data were processed

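Total RNA of UVB-irradiated keratinocytes gave 6 libraries, read from both ends at 150 bp, per the labels' protocols. The authors deposited raw counts of reads per gene, whole numbers with no normalization. FastQC, STAR, HTSeq and DESeq2 and the builds mm39 and GRCm39 appear in the submitters' processing notes. Versions, strand setting and annotation release were not given in the sources used here, so reads from a gene and one that overlaps it may be mixed.

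Symbols were matched by identifier for 52083 of 55416 genes. The main test was edgeR's robust quasi-likelihood test (edgeR 4.0.16, R 4.3.3) with genotype as the only factor, TMM scaling and filterByExpr at 10 counts, which left 17659 genes. p-values were Benjamini-Hochberg adjusted over all of them, with 0.05 as the threshold. Standard errors were the absolute log2 fold change divided by the root of F. Printed CPM use TMM scaling, and counting error weighs most on genes with few counts, such as Smad6, Tgfbr3, Bmp4 and Bmp6. The fitting code was tested on simulated data. Exon lengths and neighbouring genes came from GENCODE M21, an older assembly, and promoters from RefSeq (GRCm38.p6).

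Alternatives were DESeq2 size factors, library totals, no filter, a floor of 1 CPM on the mean, DESeq2 (1.42.0) and limma voom (limma 3.58.1) as tests, and leaving out each library. All 10 members are named, and of each pathway list up to 4 called genes with the smallest p and a mean of at least 1 CPM, plus the most abundant gene not called. Members and lists were chosen with earlier results of these data known.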

Additional observations from a re-analysis of the deposited data

How the results depend on the processing

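Of 119 values of the members under 12 alternatives, 105 kept their direction and their side of the threshold, 13 kept their direction and lost their call, and 1 turned. With 1 library left out, Bmp4 lay between -0.97 and -0.61, Bmpr1a between 0.14 and 0.34, Bmpr2 between -0.022 and 0.14, Smad6 between 2.16 and 3.48 and Id2 between 0.32 and 0.52, and the call was lost in some of these fits for each but Bmpr2, which was never called. Without WT replicate 1 Bmpr2 turned to -0.022. Library totals gave Bmp4 -0.53 and DESeq2 size factors gave Bmpr1a 0.24, both no longer called. Over all genes, library totals left 2452 called lower against 4192. With fewer genes tested at a minimum mean of 1 CPM, Smad6 was not tested, and calls were 0 lower among receptors, 1 lower among antagonists and 1 higher among responsive factors. With library totals 1 brake and 1 antagonist were lower and 2 proteases higher. Leaving out a library moved higher receptor calls to between 3 and 5, lower brake calls to 1 or 2, lower antagonist calls to 1 or 2, higher protease calls to 1 or 2, higher responsive factor calls to between 1 and 3, and E protein calls to 0 or 1. The cause was not tested.

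Among genes not called, signs turned with library totals for Acvr2a (0.056), Smurf1 (0.17, then called) and Tcf12 (0.11), with DESeq2 size factors (-0.0112), the DESeq2 test (-0.0112) and no filter (-0.0015) for Bmp8b, and with 1 library left out for Bmp8b (-0.144 to 0.107), Fst (-0.046 to 0.073), Furin (-0.015 to 0.072) and Gata3 (-0.032 to 0.096). Library totals put Bmp7 in KO at 5.57 CPM per kb. As shares of counts without length, Id1 took 44.9% in KO and 37.0% in WT, Id2 27.5% in KO and 37.3% in WT, Id4 8.32% in KO and 7.60% in WT, Bmp4 3.32% in KO and 3.60% in WT, and Bmp7 79.8% in KO and 73.0% in WT, so the directions between genotypes were those given per length. No paired analysis was possible because the libraries of the 2 genotypes share no replicate number. Depth limits genes with few counts, above all Smad6, at 1 to 4 counts in WT libraries.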
